A study of Mus musculus with 15 samples.

Results

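A set of 10 genes close to Stab1 on mouse chromosome 14 was followed in liver: Thoc7, Il3ra, Nkiras1, Nid2, Plau, Gdf10, Gm3219, Fam25c, Grid1 and Klhl33. These 10 of the 19464 rows of the deposited table were selected on 2 things, a position within 20 Mb of Stab1 and a difference in expression between Stab1-/- and wildtype livers at 2 weeks of age. The 2-week difference is therefore what selected them, and it is given as a description without a test. The fetal livers came from other libraries, whose values the stated rule did not use, and the genes were tested there. The choice was made with earlier results of these data known. In addition, 5 other genes within 20 Mb passed the 2-week threshold used here and are not among the 10. The fetal test is therefore not fully independent of the choice.

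RNA was sequenced from livers at 2 ages. The 2-week-old animals were Stab1-/- (n = 4) or wildtype (n = 4), and the E17.5 fetuses were Stab1-/- (n = 3) or wildtype (n = 4). Stab1 encodes the scavenger receptor Clever-1, which is found on sinusoidal endothelium and on some macrophages. All 4 groups carry the same labelled mixed strain background, C57BL/6N;129SvJ, and no treatment. The labels name no Cre or tissue restriction, and the sources used here do not say whether the wildtype mice were littermates. The numbers of libraries equal the numbers of mice in the study's methods. Counted in units of 1000, the libraries held 9659 to 10964 reads on genes.

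A targeted allele is inherited together with the DNA on both sides of it. In a mixed background, that stretch may come from a different strain than the matching stretch of the wildtype animals, and genes inside it can then differ between genotypes through their own sequence. In these groups the loss of Clever-1 and the inherited chromosome 14 DNA cannot be told apart. The 10 genes do not form a pathway. They include a cytokine receptor, a growth factor ligand, an extracellular matrix protein, a secreted protease, a signalling inhibitor, an RNA export factor, a neuronal receptor subunit, a Kelch protein and a pseudogene.

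In GENCODE vM21 on GRCm38, 5 of the genes lie below Stab1 on the chromosome and 5 above it. Stab1 itself spans chr14:31139013-31168641 on the minus strand. Thoc7 lies at chr14:13949012-13961852, Il3ra at chr14:14346275-14356011 and Nkiras1 at chr14:18271136-18284003. Nid2 lies at chr14:19751265-19811787 and Plau at chr14:20836660-20843385. On the other side, Gdf10 lies at chr14:33923587-33937983, Gm3219 at chr14:34345281-34345583 and Fam25c at chr14:34351881-34355433. Grid1 lies at chr14:34820108-35583379 and Klhl33 at chr14:50888582-50897507. The nearest 4 (Gdf10, Gm3219, Fam25c and Grid1) sit 2.75 to 3.65 Mb from Stab1, and the other 6 sit between 10 and 20 Mb away. Gene models are those of the annotation, since the build the authors used is not given in the sources used here.

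RefSeq promoter windows on GRCm38.p6 were found for 5 of the 10 genes (Thoc7, Il3ra, Gdf10, Fam25c and Klhl33). The 250 bases before the RefSeq start are shown for Fam25c, which had the largest 2-week difference of the 10, and for Gdf10, which was lower in Stab1-/- livers at both ages. The Fam25c window is chr14:34355394-34355643 on the minus strand and the Gdf10 window is chr14:33923337-33923586 on the plus strand, and GENCODE starts Fam25c slightly upstream of RefSeq. Both are written 5′ to 3′ on the gene's strand, and capitals mark motifs that were searched on both strands. A core promoter element of the TATA kind was searched as TATAAA. The element bound by NF-Y was searched as CCAAT. The element bound by SP1 was searched as GGGCGG.
Fam25c: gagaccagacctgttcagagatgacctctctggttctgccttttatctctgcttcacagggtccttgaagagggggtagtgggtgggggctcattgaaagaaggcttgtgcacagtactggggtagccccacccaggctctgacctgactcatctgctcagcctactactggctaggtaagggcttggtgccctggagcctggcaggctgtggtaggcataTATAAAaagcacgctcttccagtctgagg
Gdf10: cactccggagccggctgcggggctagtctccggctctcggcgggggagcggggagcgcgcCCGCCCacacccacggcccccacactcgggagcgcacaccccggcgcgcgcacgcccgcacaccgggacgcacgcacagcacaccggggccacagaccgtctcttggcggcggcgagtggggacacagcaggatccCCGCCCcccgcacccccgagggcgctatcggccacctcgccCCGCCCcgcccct
The Fam25c window held 1 CpG, against a median of 6 over the 32851 windows in the table, and it held TATAAA, as 12.4% of all windows did. The Gdf10 window held 35 CpG and GGGCGG, which 32.7% of all windows held. CCAAT, present in 33.8% of windows, was in neither. These matches describe the letters of the reference and nothing about the animals sequenced.

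Gm3219 is listed as a pseudogene of Bcl7c, and its sequence bears on which reads can be counted on it. Its GENCODE transcript of 303 bases matched Bcl7c over all 303 bases with 100% identity and 0 mismatches when searched against all GENCODE transcripts. Of the 255 stretches of 49 bases in it, which is the read length that values of a single read imply, 0 differed from Bcl7c. The first 120 bases are shown, with no capitals because no base differs between the genes.
Gm3219: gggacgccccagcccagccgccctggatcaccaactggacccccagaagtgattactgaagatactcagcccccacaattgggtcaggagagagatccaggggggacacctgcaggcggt
The authors' table lists Gm3219 with a length of 632 bases, of which 329 bases (52.1%) go beyond the GENCODE transcript. Those bases were not searched, so where the counted reads fell is not known.

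The targeted gene was lower in every Stab1-/- library than in every wildtype library of its age. Stab1 had 68 to 119 reads in Stab1-/- and 579 to 941 in wildtype libraries at 2 weeks, and 301 to 443 against 1244 to 1868 at E17.5. The log2 fold change, Stab1-/- over wildtype, was -3.19 ± 0.20 at 2 weeks and -1.91 ± 0.15 at E17.5 (standard error, edgeR, adjusted p = 5.15e-06 and 0.00101). The Stab1-/- reads still covered 26.2 to 41.1% of the Stab1 gene model at 2 weeks and 79.4 to 86.0% at E17.5. In wildtype libraries coverage was 81.2 to 93.6% and 98.1 to 98.5%.

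At 2 weeks, Thoc7, Il3ra, Nkiras1 and Klhl33 were higher in Stab1-/- livers, and Nid2, Plau, Gdf10, Gm3219, Fam25c and Grid1 were lower. All 10 passed the threshold of an adjusted p under 0.05, as the choice required, beside 2.67% of the 12716 rows tested. Of all rows, 0.936% were higher and 1.74% lower. The median absolute log2 fold change was 1.15 over the 10 genes and 0.18 over all rows tested. None of the 10 had overlapping genotypes at 2 weeks, while 14.9% of all rows had groups that did not overlap. In whole liver, fewer cells of a type and less RNA per cell cannot be told apart.

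At E17.5, 7 of the 10 genes had enough reads to be tested, and 0 of the 7 were called, beside 0.366% of 13388 rows. Of the 7, 4 (Nkiras1, Il3ra, Gdf10 and Gm3219) had an unadjusted p under 0.05, beside 12.9% of all rows. In those 4 genes the Stab1-/- and wildtype libraries did not overlap and the direction was that of 2 weeks. Over all rows, 12.2% had groups that did not overlap. By other tools, DESeq2 called 3 of the 7 genes, edgeR with all 15 libraries in one fit called 2, and limma called 1. Among the other genes called at 2 weeks, 14.3% (44 of 308) had an unadjusted p under 0.05 in the same direction at E17.5. Of the 7 tested genes, 5 had the same sign as at 2 weeks, where 38.8% of all 12353 rows tested at both ages and 40.6% of the 315 rows called at 2 weeks did. Thoc7 and Nid2 had the opposite sign. Among the genes within 20 Mb of Stab1 called at 2 weeks but not in the set, Ddhd1 kept its sign at E17.5. Rpl15, Vstm4, Bmp4 and Pnp2 did not. Whether the genotype difference itself differed between the ages was not tested for these genes.

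**Figure D1:**
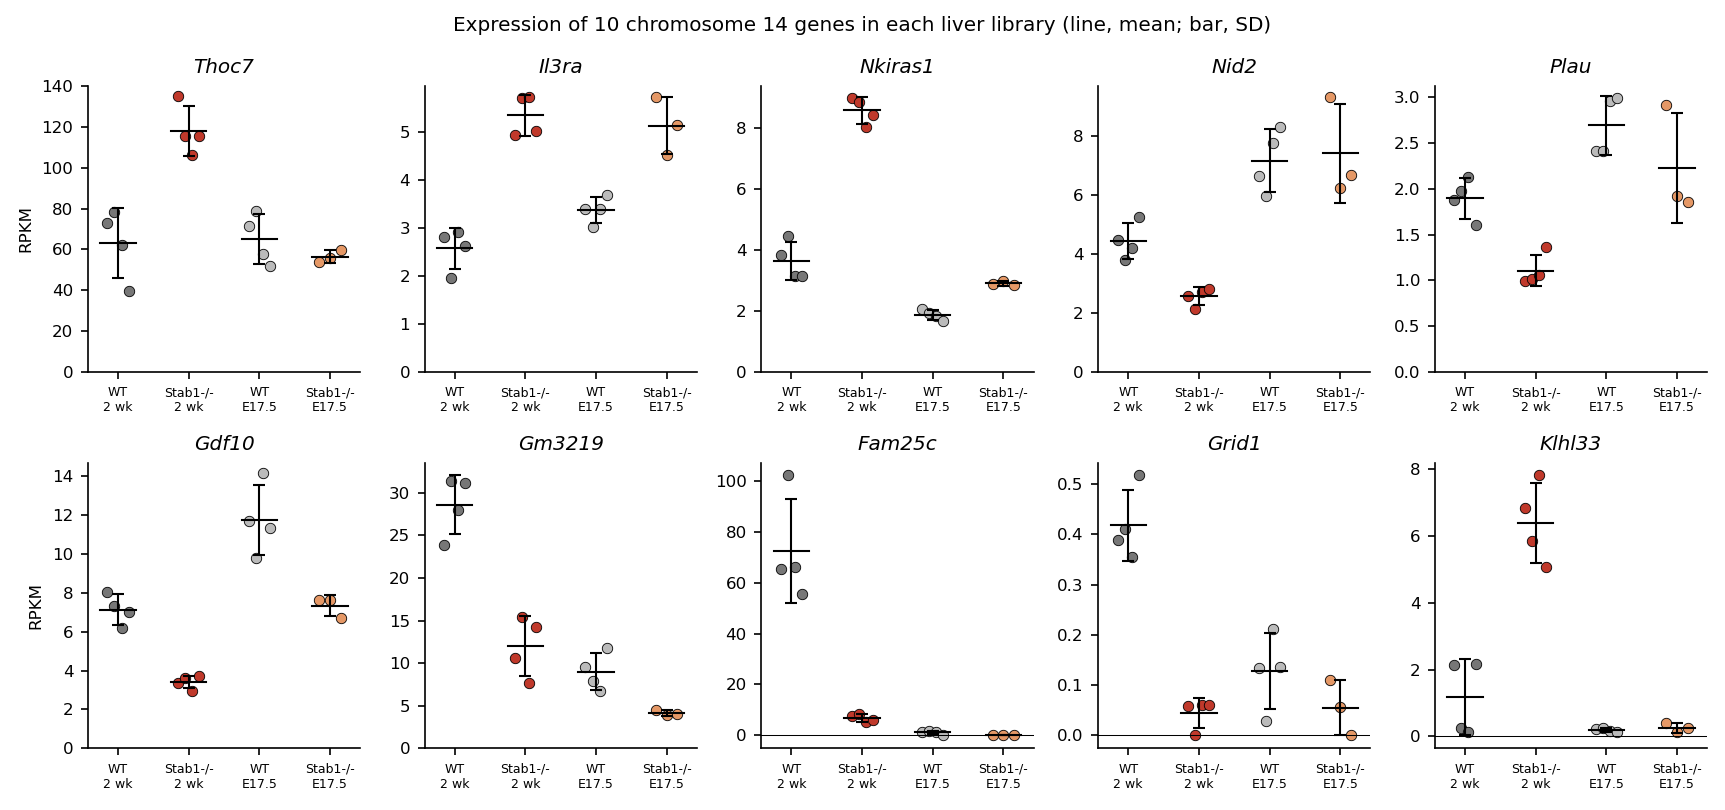
Expression (RPKM, linear axis) of the 10 genes in each library, by genotype and age, with the mean (line) and SD (bar) of 4 libraries a group and 3 for Stab1-/- at E17.5. At 2 weeks the genotypes do not overlap in any panel, and at E17.5 they stay apart in Il3ra, Nkiras1, Gdf10 and Gm3219.

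Nkiras1 encodes kappaB-Ras1, a small GTPase-like protein that binds inhibitors of NF-kB and slows their breakdown. At 2 weeks the Stab1-/- libraries had 407, 429, 356 and 376 Nkiras1 reads and the wildtype libraries had 184, 202, 153 and 154. In the fetal libraries there were 139, 143 and 138 reads against 101, 92, 92 and 82. Every Stab1-/- library was above every wildtype library at both ages. Stab1-/- livers reached 8.56 ± 0.43 RPKM and wildtype livers 3.64 ± 0.62 RPKM at 2 weeks (SD, n = 4 each). At E17.5 Stab1-/- livers were at 2.90 ± 0.073 RPKM (SD, n = 3) and wildtype livers at 1.86 ± 0.16 RPKM (SD, n = 4). The log2 fold change was 1.15 ± 0.11 (standard error) at 2 weeks. At E17.5 it was 0.69 ± 0.12 (edgeR, adjusted p = 0.0551), the smallest adjusted p among the 7 tested genes, and the exact permutation p of 0.0571 is the smallest that 3 against 4 libraries allow. DESeq2 and edgeR with all 15 libraries in one fit called Nkiras1 at E17.5.

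Il3ra encodes the alpha chain of the interleukin 3 receptor. The Stab1-/- libraries had 68, 84, 77 and 68 Il3ra reads at 2 weeks against 41, 27, 43 and 39 in wildtype. At E17.5 the reads were 84, 66 and 76 against 51, 44, 52 and 55. Every Stab1-/- library was above every wildtype library of its age. The wildtype level was 2.57 ± 0.43 RPKM at 2 weeks and 3.38 ± 0.27 RPKM at E17.5 (SD, n = 4 each), and the Stab1-/- level was 5.34 ± 0.42 RPKM (SD, n = 4) and 5.13 ± 0.60 RPKM (SD, n = 3). Il3ra had a log2 fold change of 0.96 ± 0.17 at 2 weeks and 0.66 ± 0.15 at E17.5 (standard error, edgeR, adjusted p at E17.5 = 0.134).

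Gdf10, also called BMP3B, encodes a secreted ligand of the TGF-beta superfamily. At 2 weeks the Stab1-/- libraries had 86, 100, 75 and 94 Gdf10 reads and the wildtype ones 220, 190, 171 and 195. In fetal liver there were 210, 209 and 186 reads against 329, 267, 405 and 316. All Stab1-/- libraries lay below all wildtype libraries at both ages. The Stab1-/- mean was 47.7% of the wildtype mean at 2 weeks (3.41 ± 0.33 against 7.13 ± 0.78 RPKM, SD, n = 4 each) and 62.5% of it at E17.5 (7.33 ± 0.53 RPKM, SD, n = 3, against 11.7 ± 1.8 RPKM, SD, n = 4). Gdf10 had a log2 fold change of -1.15 ± 0.13 at 2 weeks and -0.62 ± 0.13 at E17.5 (standard error, edgeR, adjusted p at E17.5 = 0.111). DESeq2 and edgeR with all 15 libraries in one fit called Gdf10 at E17.5.

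Gm3219, the Bcl7c pseudogene, had 66, 103, 47 and 88 reads in Stab1-/- libraries at 2 weeks and 158, 197, 188 and 210 in wildtype libraries. At E17.5 it had 30, 26 and 27 reads against 65, 52, 47 and 80. The genotypes did not overlap at either age. The Stab1-/- mean was 41.9% of the wildtype mean at 2 weeks (12.0 ± 3.5 against 28.6 ± 3.5 RPKM, SD, n = 4 each) and 46.1% at E17.5 (4.16 ± 0.31 RPKM, SD, n = 3, against 9.01 ± 2.20 RPKM, SD, n = 4). The log2 fold change was -1.34 ± 0.20 at 2 weeks and -1.05 ± 0.22 at E17.5 (standard error, edgeR, adjusted p at E17.5 = 0.109), and DESeq2 and limma called it at E17.5. Bcl7c itself was not called at either age. Its log2 fold change was 0.19 ± 0.16 at 2 weeks and -0.21 ± 0.18 at E17.5 (standard error, edgeR, adjusted p = 0.497 and 0.644), and its genotypes overlapped.

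Thoc7 encodes a subunit of the THO complex, which couples transcription to the export of mRNA. Per length (RPKM), it was the most strongly expressed of the 10 genes in all groups except 2-week wildtype livers, where Fam25c was higher. Its genotypes stood apart at 2 weeks and overlapped at E17.5. The 2-week Stab1-/- libraries had 1178, 1078, 904 and 992 Thoc7 reads and the wildtype libraries had 672, 687, 582 and 372. In the fetal libraries there were 499, 514 and 560 reads against 679, 727, 557 and 491. The level in 2-week-old Stab1-/- livers was 118 ± 12 RPKM (SD, n = 4), against 63.2 ± 17.2 RPKM in wildtype at 2 weeks and 64.9 ± 12.3 RPKM in wildtype at E17.5 (SD, n = 4 each) and 56.4 ± 3.1 RPKM in Stab1-/- at E17.5 (SD, n = 3). Thoc7 had a log2 fold change of 0.82 ± 0.16 at 2 weeks and -0.14 ± 0.15 at E17.5 (standard error, edgeR, adjusted p at E17.5 = 0.689). The 95% interval at E17.5 ran from -0.47 to 0.18.

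Nid2 encodes nidogen-2, which links laminins and collagen IV in basement membranes. At 2 weeks the Stab1-/- libraries had 125, 111, 129 and 135 Nid2 reads and the wildtype libraries had 230, 185, 219 and 275, with no overlap. At E17.5 there were 483, 320 and 348 reads against 352, 306, 419 and 436. Here the highest library and the second lowest were both Stab1-/-, and the groups overlapped. The level was 2.56 ± 0.30 against 4.43 ± 0.61 RPKM at 2 weeks (SD, n = 4 each), and 7.42 ± 1.68 RPKM (SD, n = 3) against 7.17 ± 1.06 RPKM (SD, n = 4) at E17.5. For Nid2, the log2 fold change was -0.88 ± 0.14 at 2 weeks and 0.11 ± 0.15 at E17.5 (standard error, edgeR, adjusted p at E17.5 = 0.782), and it was -0.07 at E17.5 without Stab1-/- replicate 1.

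Plau encodes urokinase, the protease that turns plasminogen into plasmin. The 2-week Stab1-/- libraries had 23, 25, 24 and 31 Plau reads and the wildtype libraries had 46, 46, 53 and 40. In the fetal libraries there were 72, 47 and 46 reads against 61, 59, 76 and 75, and Stab1-/- replicate 1 fell among the wildtype values. The level was 1.11 ± 0.17 against 1.90 ± 0.22 RPKM at 2 weeks (SD, n = 4 each), and 2.23 ± 0.60 RPKM (SD, n = 3) against 2.69 ± 0.32 RPKM (SD, n = 4) at E17.5. For Plau, the log2 fold change was -0.86 ± 0.20 at 2 weeks and -0.22 ± 0.19 at E17.5 (standard error, edgeR, adjusted p at E17.5 = 0.654), with a 95% interval at E17.5 of -0.65 to 0.22. Without Stab1-/- replicate 1 the E17.5 value was -0.43, still not called.

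Fam25c, Grid1 and Klhl33 had too few reads at E17.5 to be tested. The 2-week wildtype libraries had 252, 372, 258 and 218 Fam25c reads and the Stab1-/- libraries had 28, 32, 18 and 21. The Stab1-/- mean was 9.30% of the wildtype mean (6.73 ± 1.50 against 72.4 ± 20.4 RPKM, SD, n = 4 each), a log2 fold change of -3.50 ± 0.22. The 4 Stab1-/- libraries lay close together and far below the lowest wildtype library. In fetal liver the gene was nearly silent, with 5, 7, 6 and 1 reads in wildtype and 1, 0 and 1 in Stab1-/- libraries. Those 2 reads against 19 amount to 14.3% of the wildtype rate, with an exact 95% interval for counting error of 1.61 to 59.2%, and the libraries overlapped at 1 read. The mean wildtype level was 59.9 times as high at 2 weeks as at E17.5.

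Grid1, which encodes the delta-1 member of the ionotropic glutamate receptor family, is known mainly from neurons and was scarce in liver. The 2-week wildtype libraries had 14, 14, 13 and 19 Grid1 reads and the Stab1-/- libraries had 2, 0, 2 and 2, no more than the 3 reads taken as the floor of a library. The level was 0.418 ± 0.070 RPKM in wildtype and 0.045 ± 0.030 RPKM in Stab1-/- livers (SD, n = 4 each). The log2 fold change was -3.24 ± 0.46 by edgeR and -1.86 by limma on log2(RPKM + 0.1), where the pseudocount of 0.1 is larger than the Stab1-/- level. At E17.5 the reads were 5, 1, 8 and 5 in wildtype and 4, 2 and 0 in Stab1-/- libraries, which overlapped, and the Stab1-/- rate was 42.9% of wildtype with an exact 95% interval of 14.01 to 112%. The depth was too low at E17.5 to show whether the genotypes differed.

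Klhl33 belongs to the Kelch-like family, whose members serve as substrate adaptors of cullin 3 ubiquitin ligases. The 2-week Stab1-/- libraries had 108, 99, 121 and 79 Klhl33 reads. The wildtype libraries fell into a low and a middle pair, with 4 and 2 reads in replicates 2 and 3 and 36 and 37 reads in replicates 1 and 4. The Stab1-/- mean was 5.46 times the wildtype mean (6.39 ± 1.20 against 1.17 ± 1.14 RPKM, SD, n = 4 each), a log2 fold change of 2.34 ± 0.50, so the wildtype SD was nearly as large as its mean. Leaving out each library in turn moved the log2 fold change between 1.96 and 2.84. At E17.5 there were 7, 2 and 4 reads in Stab1-/- and 4, 4, 3 and 2 in wildtype libraries. The E17.5 rate was 136% of wildtype with an exact 95% interval of 58.0 to 318%, so no difference was detectable at this depth.

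**Figure D2:**
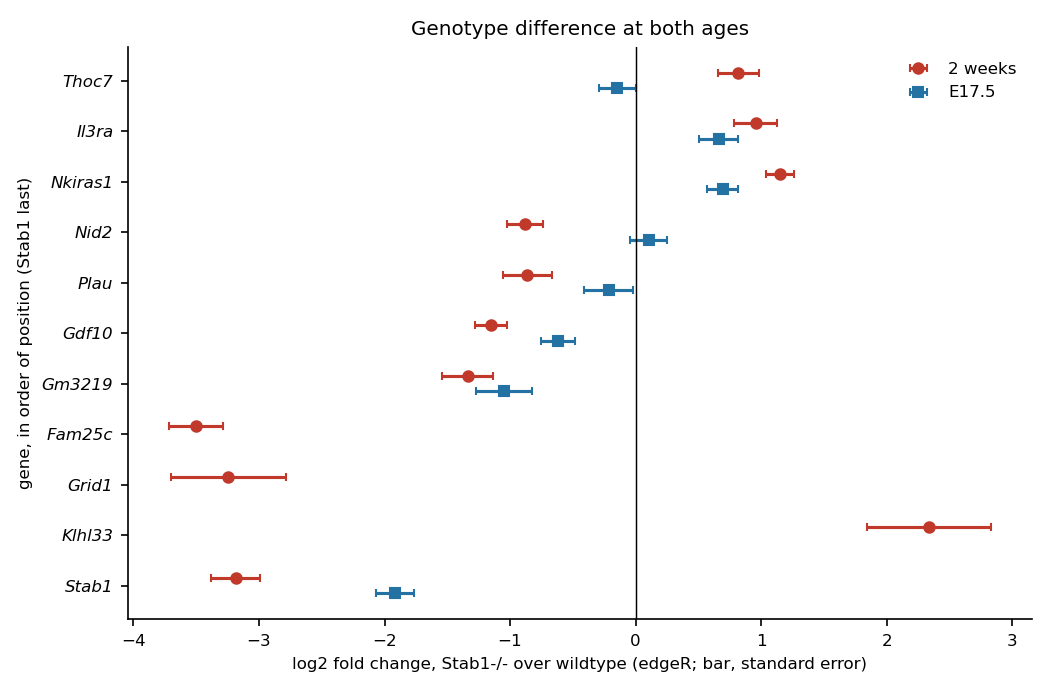
Log2 fold change of Stab1-/- over wildtype for the 10 genes, in order of position, and for Stab1 (points, edgeR; bars, standard error), at 2 weeks and E17.5. Nkiras1, Il3ra, Plau, Gdf10 and Gm3219 lie on the same side of 0 at both ages, Thoc7 and Nid2 change side, and Fam25c, Grid1 and Klhl33 have a 2-week value alone.

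Coverage, the percent of the gene model that reads touched, followed the number of reads in most of the 10 genes. Thoc7 was covered over 95.5 to 99.7% in all 15 libraries. Fam25c was covered over 85.3 to 94.6% in Stab1-/- and 97.8 to 98.9% in wildtype libraries at 2 weeks, so its 18 to 32 Stab1-/- reads still spanned most of the gene. At E17.5 it was covered over 0 to 13.4% against 13.4 to 66.5%. Gdf10 coverage was 69.2 to 76.6% against 85.3 to 92.8% at 2 weeks and 89.7 to 92.8% against 91.4 to 93.1% at E17.5, and Il3ra coverage was 79.3 to 89.8% against 54.2 to 76.0% and 82.4 to 84.9% against 71.7 to 84.7%. Nid2 coverage was 58.1 to 63.5% against 73.2 to 85.6% at 2 weeks, and 86.6 to 90.4% against 86.4 to 90.0% at E17.5. Coverage thus separated the genotypes where reads did and overlapped where they did, except that Thoc7 overlapped in coverage at 2 weeks, when nearly all of its model was covered in every library, and Gdf10 and Il3ra did at E17.5.

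Plau coverage was 35.9 to 45.4% in Stab1-/- and 53.1 to 65.1% in wildtype libraries at 2 weeks, and 58.9 to 70.6% against 71.2 to 79.1% at E17.5. The Plau genotypes thus did not overlap in coverage at E17.5 although they overlapped in reads. Klhl33 coverage at 2 weeks was 83.8 to 97.3% in Stab1-/- livers, 73.5 and 61.8% in wildtype replicates 1 and 4, and 12.2 and 6.1% in replicates 2 and 3. Grid1 was covered over no more than 2.8% in 2-week Stab1-/- and 16.9 to 24.0% in wildtype libraries. At E17.5, coverage of Klhl33 was at most 18.4% and that of Grid1 at most 11.4% in any library.

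In Nkiras1 and Gm3219 the reads did not spread over the whole gene model. Nkiras1 reached 65.8 to 68.4% in 2-week Stab1-/- libraries, where the same number of reads spread evenly would cover 97.8 to 99.0%. Its coverage was 38.1 to 52.8% in 2-week wildtype, 39.5 to 43.4% in E17.5 Stab1-/- and 27.6 to 32.6% in E17.5 wildtype libraries. The group means of coverage followed those of the reads, though 2-week wildtype libraries with 153 and 154 reads were covered less (38.1%) than the E17.5 Stab1-/- libraries with 138 to 143. Gm3219 stood apart. Its coverage was 30.2 to 33.4% in 2-week Stab1-/- and 29.6 to 38.0% in E17.5 Stab1-/- libraries, and 42.1 to 42.9% in 2-week wildtype and 41.6 to 42.1% in E17.5 wildtype libraries. Each of the 7 Stab1-/- libraries was thus below each of the 8 wildtype libraries. This was not in the order of the reads, since a 2-week Stab1-/- library with 103 reads was covered over 31.7% and an E17.5 wildtype library with 47 reads over 42.1%. Evenly spread reads would have covered 86.7 to 100% of the model.

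**Figure D3:**
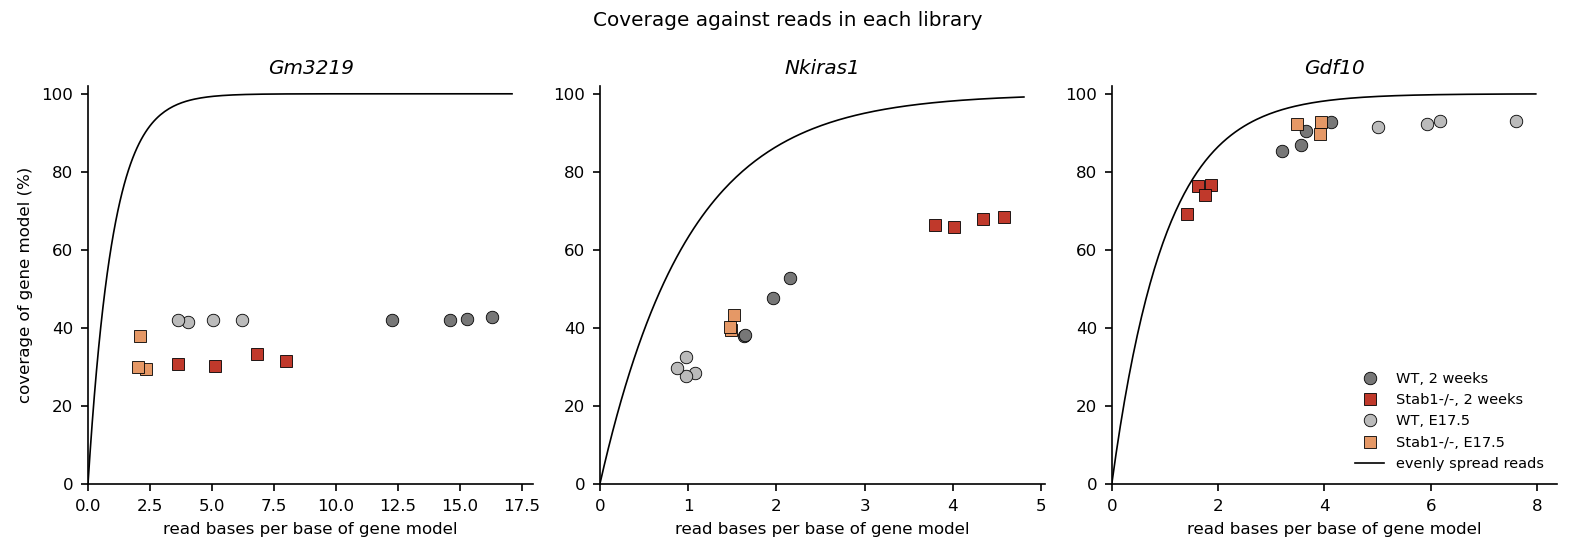
Coverage of the gene model (%) against read bases per base of the model for Gm3219, Nkiras1 and Gdf10 in the 15 libraries, with the curve for evenly spread reads. In Gm3219 all Stab1-/- libraries (squares) sit at 29.6 to 38.0% and all wildtype libraries (circles) at 41.6 to 42.9% whatever their reads, while in Nkiras1 and Gdf10 coverage rises with the reads.

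The genes next door to the 10 were compared with all rows. Of the 18 nearest tested genes on either side not among the 10, edgeR called 1 at 2 weeks, Rpl15, and 0 at E17.5. Over all rows tested it called 2.67% and 0.366%. The neighbours had a median absolute log2 fold change of 0.22 at 2 weeks and 0.13 at E17.5. Over all rows it was 0.18 and 0.13. Rpl15, a protein of the large ribosomal subunit, overlaps Nkiras1 by 256 bases on the opposite strand in GENCODE. Its log2 fold change was 0.73 ± 0.16 at 2 weeks and -0.08 ± 0.13 at E17.5 (standard error, edgeR, adjusted p = 0.0330 and 0.814). Ube2e1 overlaps the other end of Nkiras1 by 1282 bases on the opposite strand and had log2 fold changes of 0.28 ± 0.17 and -0.36 ± 0.17 (edgeR, adjusted p = 0.359 and 0.419). Atxn7 overlaps Thoc7 by 413 bases and 2700060E02Rik overlaps Nid2 by 437 bases, both on the opposite strand and neither called at either age. Whether the counting used strand is not given in the sources used here, so reads in these overlaps cannot be told apart.

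Glud1, the mitochondrial glutamate dehydrogenase, ends 0.016 kb before the GENCODE start of Gm3219 on the same strand. It had 15629 to 20539 reads in Stab1-/- and 21433 to 24272 in wildtype libraries at 2 weeks, and 11300 to 14040 against 15782 to 17174 at E17.5. All Stab1-/- libraries were below all wildtype libraries of their age, and the log2 fold change was -0.45 ± 0.11 and -0.28 ± 0.09 (standard error, edgeR, adjusted p = 0.0517 and 0.259). As a share of Glud1 reads, Gm3219 reads were 0.301 to 0.559% in Stab1-/- and 0.698 to 0.877% in wildtype libraries at 2 weeks, and 0.192 to 0.241% against 0.293 to 0.466% at E17.5. The genotypes stayed apart in this share. How much of the Gm3219 signal runs on from Glud1 was not tested.

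In the whole window of 20 Mb on either side of Stab1, 15 of 168 tested genes (8.93%) were called at 2 weeks, the 10 genes among them. On other chromosomes 2.46% were called. The other 5 in the window were Rpl15, Vstm4, Ddhd1, Bmp4 and Pnp2, which is 3.16% of the 158 remaining genes. Leaving out the 10 removes genes chosen for being called, so this lowered share cannot be set against the 2.46%. Leaving out 1 library lost the call of Vstm4 and of Bmp4 in 7 of 8 cases each, of Pnp2 in 6 and of Rpl15 in 5, and that of Ddhd1 in none (edgeR, adjusted p up to 0.131, 0.124, 0.128, 0.109 and 0.0457). Vstm4 and Bmp4 were also not called with median-of-ratios normalization (edgeR, adjusted p = 0.0507 and 0.0508) or by limma (adjusted p = 0.0721 and 0.0703). Farther than 20 Mb on chromosome 14, 17 of 255 genes (6.67%) were called. By distance, 5 of 66 genes were called within 5 Mb of Stab1, 0 of 21 between 5 and 10 Mb and 10 of 81 between 10 and 20 Mb. Just inside the limit of the choice lay Klhl33 at 19.72 Mb and Pnp2, called but not among the 10, at 19.79 Mb. Just outside it lay Sall2 at 21.14 Mb (-1.20 ± 0.27 on the log2 scale) and, on the other side, Acox2 at -22.88 Mb (0.58 ± 0.11). Glud1, Slc4a7 (0.69 ± 0.18) and Tmem260 (-0.47 ± 0.13) were the window genes that most narrowly missed the call.

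At E17.5, 5 of 277 genes (1.81%) farther than 20 Mb on chromosome 14 were called, and 0.265% on other chromosomes. In the window 7 of 178 genes (3.93%) were called, none of them among the 10. The 3 that were higher in Stab1-/- livers were Thrb, a thyroid hormone receptor (0.69 ± 0.08, adjusted p = 0.00827), Samd8, a sphingolipid enzyme (0.49 ± 0.08, adjusted p = 0.0437), and Tnnc1, the troponin C of slow muscle and heart (0.84 ± 0.11, adjusted p = 0.0116, edgeR for each). Tnnc1 lies 0.040 Mb from Stab1 and had 444 to 645 reads in Stab1-/- and 306 to 350 in wildtype libraries. The genotypes of Thrb and of Samd8 did not overlap at 2 weeks either (0.35 ± 0.10 and 0.32 ± 0.11, edgeR, adjusted p = 0.0820 and 0.106). At that age 14.9% of all rows had groups that did not overlap.

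The other 4 window genes were lower in Stab1-/- fetal livers. Hesx1, a homeobox repressor, had 1, 0 and 0 reads in Stab1-/- and 20, 28, 26 and 16 in wildtype libraries, so the Stab1-/- rate was 1.51% of wildtype with an exact 95% interval of 0.0378 to 8.62% (edgeR, adjusted p = 0.00696). Ddhd1, a phospholipase, was the only one of the window genes other than Stab1 called at both ages, with log2 fold changes of -0.69 ± 0.12 at 2 weeks and -1.21 ± 0.14 at E17.5 (edgeR, adjusted p = 0.0114 and 0.00689). By limma, Ddhd1 was not called at 2 weeks (adjusted p = 0.0620). Syt15, a synaptotagmin 3.05 Mb from Stab1, was at -1.63 ± 0.28 (edgeR, adjusted p = 0.0492). Pnp, purine nucleoside phosphorylase, was at -0.88 ± 0.13 (edgeR, adjusted p = 0.0249). At 2 weeks Pnp went the other way, with all Stab1-/- libraries above all wildtype ones (0.21 ± 0.09, edgeR, adjusted p = 0.183). The E17.5 calls of Samd8 and Syt15 were lost whichever library was left out, those of Pnp in 5 of 7 cases and of Tnnc1 in 3 of 7, with adjusted p-values up to 0.136, 0.160, 0.0956 and 0.0736.

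**Figure D4:**
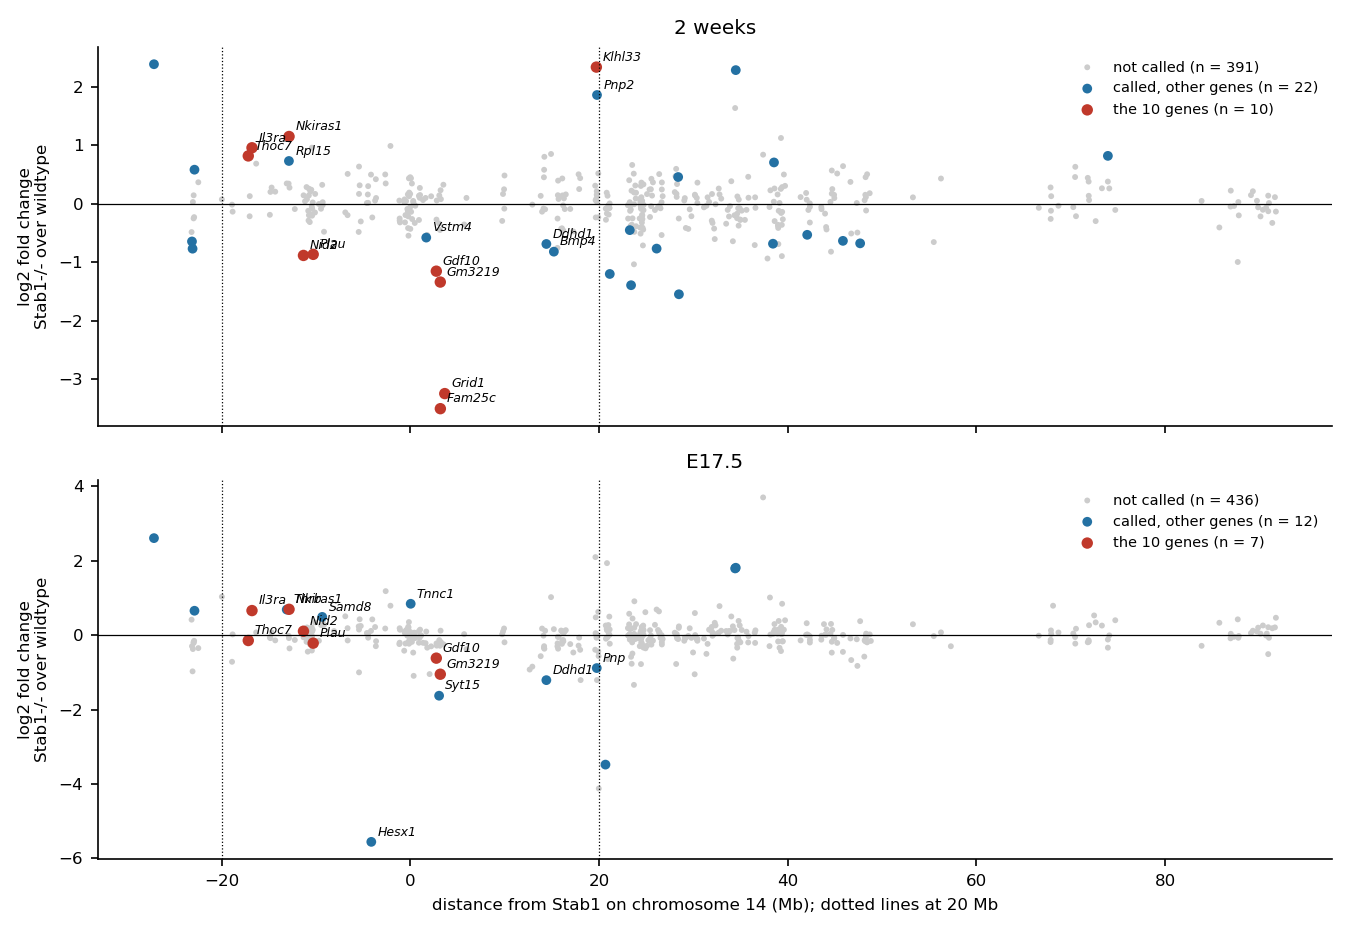
Log2 fold change of Stab1-/- over wildtype for every tested chromosome 14 gene other than Stab1, against its distance from Stab1 (Mb), at 2 weeks and E17.5. Red points are the 10 genes (7 tested at E17.5), blue points other called genes and grey points genes not called, and dotted lines mark 20 Mb. At 2 weeks called genes lie on both sides of Stab1 and beyond 20 Mb, and at E17.5 none of the red points is called.

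Genes whose products work with those of the 10 genes were compared as well, in lists chosen with earlier results of these data known. Their shares of called genes are therefore a description and not an independent test. Of 47 partner genes tested at 2 weeks, 1 rose and 4 fell (10.6%, beside 2.67% of all rows), and of 50 tested at E17.5 0 were called by edgeR. The 4 that fell were basement membrane partners of the nidogens, 4 of the 8 tested. Nid1 was at -0.68 ± 0.13, Lamb1 at -0.64 ± 0.13, Col4a1 at -0.83 ± 0.15 and Col4a2 at -0.92 ± 0.18 (standard error, edgeR, adjusted p = 0.0200, 0.0307, 0.0157 and 0.0229). The median log2 fold change of this list was -0.63 at 2 weeks and 0.38 at E17.5, against -0.01 and 0.00 over all rows. Nid2 itself moved from -0.88 to 0.11, but its E17.5 value was -0.07 without Stab1-/- replicate 1. The E17.5 median of the list without that replicate is not reported here, so whether it rests on that library is not known.

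The other lists had 1 call at 2 weeks, Klhl2 of the Kelch-like and cullin 3 list, at 0.43 ± 0.10 (edgeR, adjusted p = 0.0463). In plasminogen activation 0 of 5 tested genes were called at 2 weeks and 0 of 7 at E17.5, with Plg at -0.27 ± 0.14 and 0.34 ± 0.11 and Serpinf2 at -0.26 ± 0.13 and 0.18 ± 0.09. In the THO complex and export list 0 of 8 were called at either age, with Ddx39b at -0.10 and 0.02 and Nxf1 at -0.16 and -0.16. In the interleukin 3 receptor family 0 of 6 and 0 of 7 were called, with Stat5b at -0.16 and 0.11 and Jak2 at -0.01 and -0.03. Among NF-kB inhibitors and subunits 0 of 7 were called at either age, with Nfkb1 at -0.10 and 0.13 and Rela at -0.07 and 0.14. In Gdf10 and Bmp3 signalling 0 of 5 were called at either age, with Tgfbr1 at 0.48 and -0.17 and Smad2 at 0.10 and -0.02. In the delta receptor list Cbln3 was at 0.33 and -0.33 and was not called at either age.

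Markers of the cell types in liver were compared beside these results. The hepatocyte markers were strongly expressed in all groups, and none of the 6 was called. Their summed level was lower in Stab1-/- livers at 2 weeks (55589 to 71452 against 71871 to 92323 RPKM). The exact permutation p of 0.0286 is the smallest that 4 against 4 libraries allow, and it is not adjusted for the other lists. At 2 weeks 14.9% of all rows also had groups that did not overlap. At E17.5 the hepatocyte sums overlapped (51382 to 59607 against 47750 to 52522 RPKM). The summed levels of the other marker lists overlapped between genotypes at both ages. In the stellate and fibroblast list Col1a1 and Reln were called lower at 2 weeks, 2 of 5, beside the lower Nid2 and Nid1 of those livers, and the list summed to 158 to 179 against 158 to 192 RPKM. The sinusoidal endothelial markers summed to 140 to 147 against 128 to 153 RPKM at 2 weeks and to 71.7 to 80.4 against 78.0 to 82.2 RPKM at E17.5, with 0 of 5 called. Mast cell and basophil markers, cells that carry the interleukin 3 receptor, summed to at most 0.388 RPKM in any 2-week library, with Fcer1a at 0 in all of them, while Il3ra was at 1.95 to 5.72 RPKM there. At E17.5 that list summed to 4.18 to 5.27 RPKM in Stab1-/- and 3.22 to 4.62 RPKM in wildtype libraries, where Il3ra was at 4.53 to 5.73 and 3.02 to 3.69 RPKM. The biliary list reached 80.6 RPKM in 1 E17.5 Stab1-/- library and at most 14.2 RPKM in any 2-week library. Which replicate this was is not reported here. The paper's list of genes raised in E17.5 Stab1-/- livers includes genes it describes as intestinal (Alpi and Fabp2). E17.5 Stab1-/- replicate 1 had 483 Nid2 reads, against 320 and 348 in replicates 2 and 3. For Plau it had 72 against 47 and 46, but for Nkiras1 139 against 143 and 138. Whether tissue other than liver was present in a library was not tested. The part of cell composition in the differences of the 10 genes was not tested.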

How the data were processed

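The authors deposited 1 table of 19464 rows with 3 values for each of the 15 liver libraries. Per the file headers, these are the counts of reads that mapped to a single place (whole numbers), RPKM (the counts scaled by gene length and library total) and coverage (the percent of a gene's model that reads touched). Recomputed RPKM values differed by no more than 5.14e-13 percent. The aligner, counting program, genome build and use of strand are not given in the sources used here. Counted in units of 1000, depth was 9659 to 10964 reads per library, and a floor of 3 reads and the intervals cover counting error only. Replicates differed by a chi-square per degree of freedom of at least 5.68, so no library repeated another.

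The members and lists were chosen with earlier results of these data known. Where a symbol had several rows, the row with most reads was used. Genotypes were compared within each age with edgeR 4.0.16 in R 4.3.3 (TMM, filterByExpr with a minimum count of 10 and total of 15, quasi-likelihood test, two-sided), with p-values adjusted by Benjamini-Hochberg over all rows and a threshold of 0.05. Errors of log2 fold changes are standard errors. For single values, exact permutation tests (two-sided, Python 3.11.15) were used. The alternatives were DESeq2 1.42.0, median-of-ratios normalization, no filter, all 15 libraries in one fit, the replicate number as a block, limma 3.58.1 on log2(RPKM + 0.1) and leaving out each library. All fits except those leaving out a library were run on simulated data, and the outcome is not reported here. Positions come from GENCODE vM21, in which 19196 rows (98.6%) were placed, by Entrez ID or, failing that, symbol, promoters come from RefSeq on GRCm38.p6, and Gm3219 was searched with BLAST 2.17.0. The read length of 49 bases was taken from the 15293 values of 1 read. Evenly spread coverage is 1 minus the exponential of minus the read bases per base. Genes named are the 10 members and Stab1, window genes called at E17.5, the nearest tested gene on each side of a member, and of each partner list the called genes or, with none, the pair with most reads, except that 1 gene of the delta receptor list is not reported here. edgeR as set here called no member at E17.5, so no genes of like pattern are named. The other window genes called at 2 weeks and the genes near the limits of the choice were named after their values were seen.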

Additional observations from a re-analysis of the deposited data

Results flagged for a closer look

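Among the 33 sets of 4 libraries examined for the 10 genes and Stab1, 1 held a library far from the rest, where chance at 1 in 20 would give 1.65. Grid1 was at 0 RPKM in 2-week Stab1-/- replicate 2, with 0 reads, and the nearest of the other 3 libraries was at 0.0589 RPKM with 2 reads.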

How the results depend on the processing

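At 2 weeks 340 genes were called, 861 with DESeq2, 703 with all 15 libraries in one fit, 219 with limma and 116 to 648 when a library was left out (116 without Stab1-/- replicate 1, 648 without wildtype replicate 2). The window genes called at 2 weeks went from 15 to 23 with DESeq2 and to 9 to 19 without a library. At E17.5, 49 genes were called, 230 with DESeq2 and 27 to 46 without a library. Window calls there went from 7 to 18 with DESeq2 and to 3 to 5 without a library. Of the 10 genes, DESeq2 called 3 at E17.5, all 15 libraries in one fit 2, limma 1 and each fit without a library 0. The same sign at both ages was found for 5 genes under every alternative except without Stab1-/- E17.5 replicate 1, where Nid2 turned from 0.11 to -0.072 (range without a library -0.072 to 0.20) and the number was 6. The cause of these shifts was not tested. Stab1 stayed called throughout.

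Same-numbered libraries of the genotypes correlated at 0.0233 to 0.204 at 2 weeks and -0.178 to 0.00044 at E17.5. Differently numbered ones correlated at -0.258 to 0.283 and -0.0995 to 0.262. The mean was 0.141 for same and -0.0474 for different numbers at 2 weeks, and -0.101 and 0.0327 at E17.5. Not every library correlated best with its own number, and the numbers were not taken to pair them. Whether the 2-week numbers mark something the libraries share was not tested. With the number as a block, 1181 genes (35 in the window) were called at 2 weeks and 23 (2 in the window) at E17.5, 0 of them among the 10 at E17.5.

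Depth limits Fam25c, Grid1 and Klhl33 at E17.5, at 8 reads or fewer per library.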

Other observations

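At 2 weeks the wildtype libraries with more Klhl33 reads were also those with more reads of Pnp2, a purine nucleoside phosphorylase gene at 19.79 Mb from Stab1, where Klhl33 is at 19.72 Mb. Replicates 1 and 4 had 36 and 37 Klhl33 reads and 29 and 27 Pnp2 reads, and replicates 2 and 3 had 4 and 2 Klhl33 reads and 8 and 2 Pnp2 reads. This pairing of libraries was noticed after the values were seen, and it has no test.

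Pnp2 also resembled Gm3219 in that coverage was not in the order of reads. In Stab1-/- libraries 54 to 72 reads at 2 weeks covered 6.44 to 14.3% of its model and 16 to 32 reads at E17.5 covered 6.28 to 10.2%, while in wildtype fetal livers 38 to 66 reads covered 57.5 to 68.9%. In 2-week wildtype libraries the 29 and 27 reads of replicates 1 and 4 covered 10.4 and 14.3%, and the 8 reads of replicate 2 covered 24.4%. Its log2 fold change was 1.86 ± 0.43 at 2 weeks (standard error, edgeR, adjusted p = 0.0456) and -1.21 ± 0.28 at E17.5 (adjusted p = 0.138), and the 2-week call was lost in 6 of 8 fits without a library, with adjusted p-values up to 0.128. Pnp, its neighbour at 19.76 Mb, was covered over 33.9 to 39.4% in all 15 libraries with 412 to 1272 reads. The cause of the uneven coverage was not tested.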
